A study of Mus musculus with 3 samples.

Results

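The genes described here encode the proteins of the cytosolic ribosome, measured in activated regulatory T cells of the mouse. They were taken as protein-coding genes of GENCODE M21 whose names are Rpl or Rps followed by a number and at most 1 letter (a, l or x), together with Rplp0, Rplp1, Rplp2, Rpsa, Rpl22l1 and Rpl7l1. The rule found 82 genes of 55536 annotated genes, 51 of the large subunit and 31 of the small subunit. The cells were primary cells of 1 male mouse aged 9 weeks, and the labels name no genotype, no means of activation and no gate for a sort. PolyA-selected RNA was sheared and sequenced as 3 libraries, which the labels call technical replicates 1, 2 and 3 of 1 biological replicate. There was 1 group, so no condition is compared, every SD is over libraries of the same cells (n = 3), and p-values measure only technical spread. The libraries held 31406146, 32553270 and 37201436 expected counts on annotated genes. All 6 genes listed as regulatory T cell markers were detected, from 135 TPM for Foxp3 to 1274 TPM for Cd3e. Of these, Cd3e and Cd4 are expressed by T cells more widely. TPM is a length-corrected level scaled to the same total in every library. Of the markers of other cells, 4 of 5 B cell genes were detected and summed to 50.9, 36.7 and 40.3 TPM with the fifth, Pax5, at 0.0867 TPM, and 3 of 5 macrophage genes were detected with a sum of 40.7, 38.9 and 44.2 TPM. The 4 red cell hemoglobin genes summed to 885, 632 and 709 TPM, and neither of the 2 platelet genes was detected. In such bulk RNA, fewer cells of a type and less RNA per cell cannot be told apart.

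Each ribosome carries a single copy of most of its proteins, and the cell balances their production with that of ribosomal RNA. The messenger RNAs of these proteins are abundant and short and classically begin with a C followed by a run of pyrimidines, the 5′ terminal oligopyrimidine (TOP) motif, through which mTOR signalling and Larp1 control their translation. T cells are known to make many new ribosomes when they are activated. Ribosomal protein genes have also left many processed pseudogenes, intronless copies of the messenger RNA inserted elsewhere in the genome, and this bears on how short reads are counted.

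The first set of sequences shows how alike a gene and its processed copy can be, because many levels below depend on it. The lines give the first 60 coding bases of Rpl13 (chr8:123102350-123105244, plus strand, mm10) and of Gm12918 (chr4:10848420-10849055, plus strand), annotated as a processed pseudogene. They come from the GENCODE M21 transcripts Rpl13-201 and Gm12918-201.
Rpl13: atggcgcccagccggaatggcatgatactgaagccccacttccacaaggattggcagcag
Gm12918: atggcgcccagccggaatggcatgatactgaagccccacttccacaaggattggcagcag
No base differed over the 633 coding bases of Rpl13 (stop codon left out). The same held over 891 bases for Rpl5 and Gm15500, over 642 bases for Rpl10 and Rpl10-ps3, and over 252 bases for Rps27 and Rps27rt.

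The next lines set Rps27 (chr3:90212522-90213651, minus strand) beside its retrocopy Rps27rt (chr9:114982366-114982739, minus strand) and its paralog Rps27l (chr9:66946086-66949516, plus strand). Capitals mark bases that differ from Rps27. Both other genes are annotated as protein coding.
Rps27: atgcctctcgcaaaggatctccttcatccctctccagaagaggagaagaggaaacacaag
Rps27rt: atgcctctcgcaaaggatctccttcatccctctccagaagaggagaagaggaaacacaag
Rps27l: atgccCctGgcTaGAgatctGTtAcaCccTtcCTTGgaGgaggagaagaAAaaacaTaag
Rps27l differed from Rps27 at 18 of these 60 bases and at 60 of 252 coding bases, an identity of 76.2%. Reads that lie within the coding sequence therefore cannot be told apart between Rps27 and Rps27rt.

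The second set of sequences shows annotated starts with and without the letters of a TOP motif. The genes with a run were picked from those with the longest runs at a RefSeq start, and Rpl3l is an example without one. Each line gives 15 bases before and 15 bases from the RefSeq start (GRCm38.p6, the mm10 assembly), with the pyrimidine run that begins with C at the start in capitals.
Rpl15 (chr14:18270972-18271001, minus strand): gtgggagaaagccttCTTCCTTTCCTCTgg
Rpl35 (chr2:39005117-39005146, minus strand): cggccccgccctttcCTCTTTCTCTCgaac
Rps10 (chr17:27635230-27635259, minus strand): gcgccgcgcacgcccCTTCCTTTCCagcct
Rps6 (chr4:86857353-86857382, minus strand): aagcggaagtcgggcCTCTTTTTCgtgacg
Rpl3l (chr17:24727811-24727840, plus strand): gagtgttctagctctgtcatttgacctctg
RefSeq promoters were found for 62 of the 82 genes. A C followed by at least 4 pyrimidines, searched only at the annotated start and on the gene's strand, began 17.6% of the 74 entries of these genes, beside 2.51% of all 32851 entries. In the GENCODE transcripts, such a start headed the leading protein-coding transcript of 10 of 78 genes (12.8%), beside 2.35% of 9679 genes with a leading coding transcript at TPM 1 or more. The longest of these runs, 17 bases, stood at the start of Rps24-202, followed by 14 bases in Rpl32-201 and 11 bases in Rps25-204. The leading coding transcripts of Rpl15, Rpl35, Rps10 and Rps6, whose RefSeq starts are printed above, did not begin with a C. A start with no match says only that the letters are not at that annotated base.

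Ribosomal protein genes were among the most abundant messenger RNAs of these cells. A gene was called detected at TPM 1 or more in every library, and 79 of the 82 genes passed, beside 47.3 percent of 22028 protein-coding genes. Their median level was 509, 575 and 558 TPM in libraries 1, 2 and 3, against 0.85, 0.81 and 0.78 TPM over all protein-coding genes and 29.9, 28.6 and 29 TPM over the detected ones. Of the genes, 23 stood at 1000 TPM or more, 51 between 100 and 1000 TPM and 5 detected ones below 100 TPM. They held 21 of the 100 and 62 of the 500 highest places among protein-coding genes. Together they took 2.01, 2.23 and 2.11% of expected counts (2.11% ± 0.108, SD, n = 3) and, being short, 5.61, 6.16 and 5.87% of TPM. The median transcript length was 560 bases, against 2277 bases over detected protein-coding genes.

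**Figure D1:**
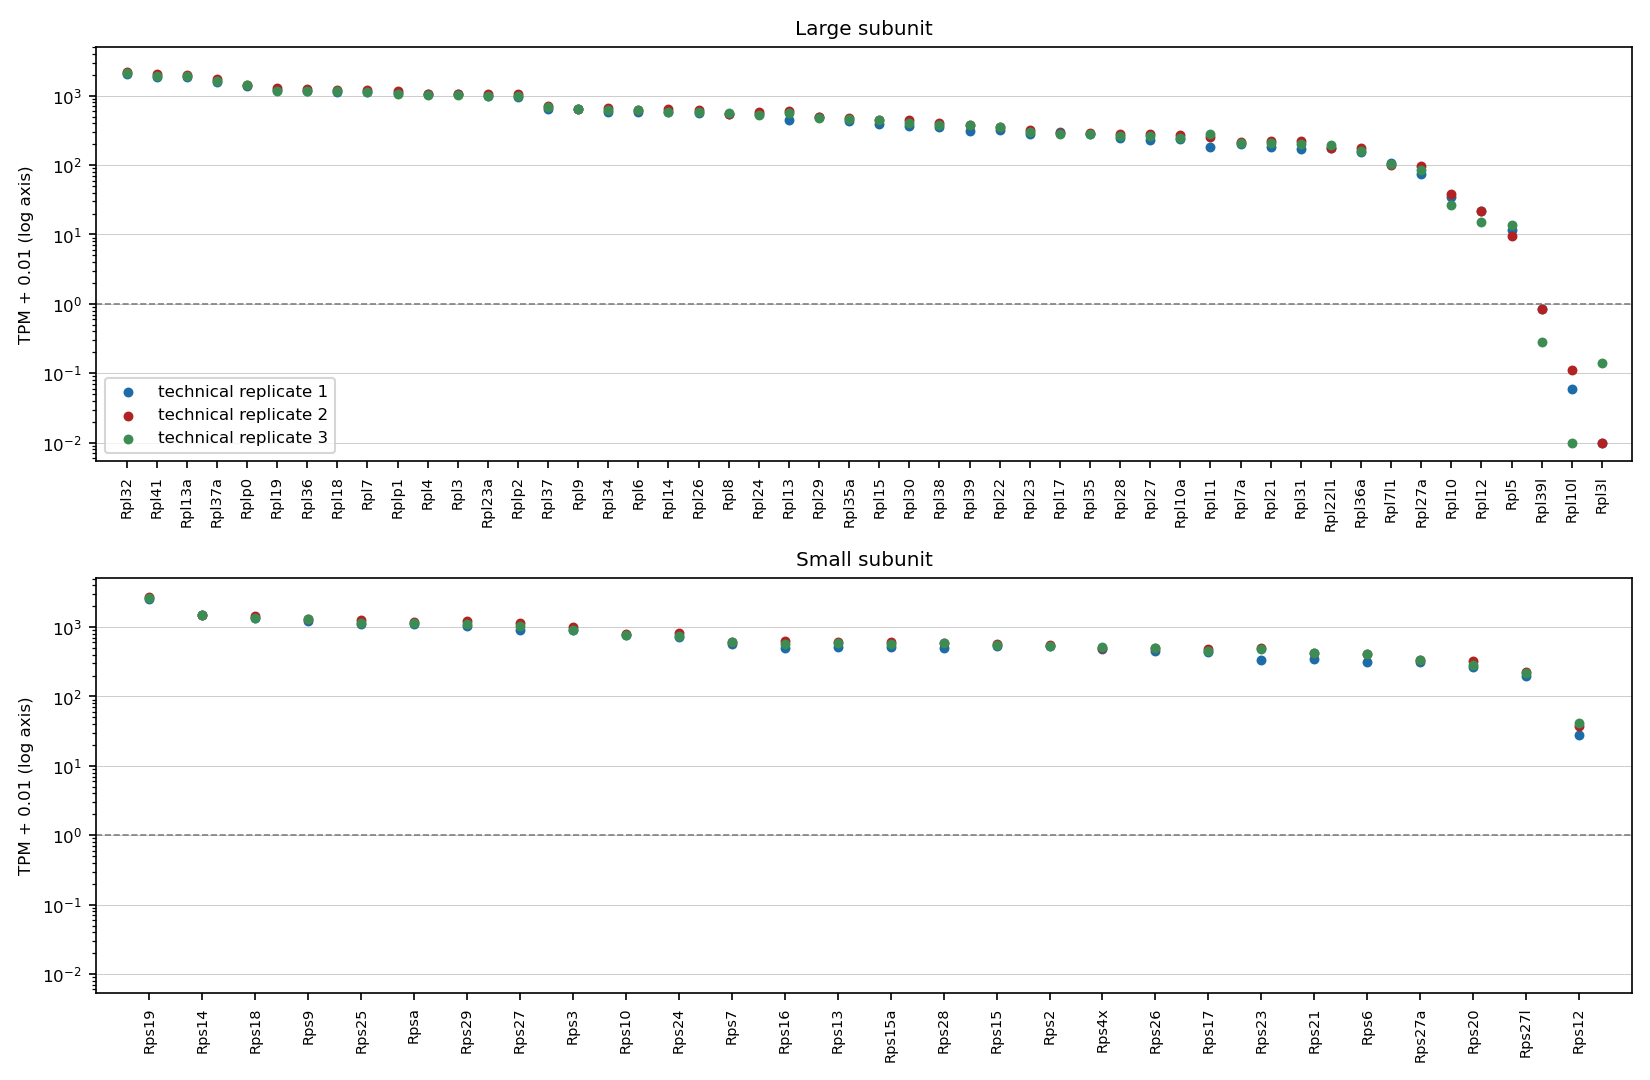
Level of the genes listed on the axis in each library, as TPM + 0.01 on a log axis, ordered by the mean within the large (top) and small (bottom) subunit; the dashed line marks TPM 1. Most genes sit between 100 and 1000 TPM or above, Rpl5, Rpl12, Rpl10 and Rps12 fall well below the others, and Rpl39l, Rpl10l and Rpl3l lie under the line.

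Among the genes at the top, Rps19, the small subunit protein most often mutated in Diamond-Blackfan anemia, had 2535, 2696 and 2587 TPM. Rpl32 followed with 2056, 2230 and 2121 TPM. The ranges of these genes did not overlap. With the TPM of annotated copies added (other genes that share much of the sequence, defined below), Rps27 at 2677 ± 128 TPM and Rpl13 at 2674 ± 43.8 TPM overlapped with Rps19 at 2626 ± 84.8 TPM, whereas alone they had 1029 and 539 TPM. Rpl41, the smallest ribosomal protein, had 1838, 2090 and 1925 TPM. Rpl13a, known also for a role outside the ribosome in silencing inflammatory messages, had 1877, 1982 and 1935 TPM. The values of Rpl41 and Rpl13a overlapped, so their order is not resolved. Rpl37a had 1553, 1726 and 1629 TPM. Rps14, a protein of the small subunit platform, varied least of the 10 highest genes, with 1494, 1502 and 1490 TPM (1495 ± 5.63). Rplp0 and Rps18, described below, were also among the 10 highest.

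The stalk of the large subunit recruits the GTPase factors of translation, and its members are Rplp0, Rplp1, Rplp2 and the base protein Rpl12. Rplp0 had 1389, 1439 and 1410 TPM, Rplp1 had 1081, 1183 and 1073 TPM, and Rplp2 had 950.4, 1044 and 982 TPM. In the stalk several copies of Rplp1 and Rplp2 bind each Rplp0, whereas the message levels were highest for Rplp0, which exceeded Rplp1 by 0.35 ± 0.06, and Rplp1 exceeded Rplp2 by 0.16 ± 0.03 on the log2 scale. Rpl12 was listed far lower, at 22, 22 and 14.9 TPM. Its annotated copies carried 93.8% ± 0.901 of the counts of gene and copies together, and Gm10275, a transcribed pseudogene, alone had 5780, 6816 and 7217 expected counts against 431, 489.9 and 402 for Rpl12. With copies added, Rpl12 stood at 738, 808 and 768 TPM.

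The 5S particle brings Rpl5 and Rpl11 into the ribosome with 5S ribosomal RNA, and the same proteins bind Mdm2 when ribosome assembly fails. Rpl5 was the lowest detected gene, at 11.7, 9.4 and 13.6 TPM. Its 3 copies carried 97.4% ± 0.46 of the joint counts, with 7712, 8370 and 9284 expected counts on Gm15500. Rpl5 with its copies stood at 439, 442 and 440.3 TPM, an SD of 1.53 against 2.08 for a level of 11.5 TPM alone. Rpl11 had 183, 251 and 278 TPM and 757, 844 and 821 TPM with copies. For these partner genes, the levels were 11.5 against 237 TPM alone and 440.3 against 807 TPM with copies.

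At the exit of the peptide tunnel, where targeting factors meet the new chain, all 7 genes listed were detected. Rpl19 was highest with 1224, 1275 and 1182 TPM, followed by Rpl23a with 995, 1043 and 990.0 TPM, which did not overlap with it. Rpl26 had 564, 632 and 574 TPM, and Rpl39, which lines the tunnel, had 315, 374 and 376 TPM. Rpl17 had 297, 288 and 285 TPM, and Rpl35 had 280.0, 293 and 279 TPM, so these last levels overlapped. Rpl31 was lowest when genes were taken alone, at 171, 219.7 and 198 TPM. Copies carried 71.5% ± 0.0966 of the joint counts of Rpl35, 61% ± 3.51 of those of Rpl31 and 48.3% ± 2.4 of those of Rpl17. With copies added the order changed: Rpl39 was lowest at 359.8 TPM, Rpl31 had 615 and Rpl17 675 TPM, and Rpl35, at 1185 ± 33.3 TPM, overlapped with Rpl23a at 1197 ± 68.9 TPM.

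In the small subunit, Rps18 of the head had 1340, 1469 and 1372 TPM. Rpsa, also known as the laminin receptor, had 1126, 1172 and 1162 TPM. Rps3, at the entry of the message, had 913, 989 and 918 TPM. Rps15 had 536, 573 and 548 TPM, and Rps2 had 528, 548 and 534 TPM. The values of Rps15 and Rps2 overlapped. Rps6, the substrate of S6 kinase, had 318, 411 and 406 TPM, with library 1 below the others. Rps23, of the decoding centre, showed the same order, at 339, 498 and 488 TPM. Rps27a, which is made as a fusion with ubiquitin, had 315, 337 and 333 TPM. These last levels also depended on copies. With copies, Rps6 had 1356, 1382 and 1355 TPM, so library 1 no longer stood below the others, Rps23 had 1668, 1877 and 1763 TPM, and Rps27a had 907, 965 and 882 TPM. The median over the small subunit was 528, 607 and 585 TPM and over the large subunit 433, 484 and 467 TPM, a log2 ratio of large to small of -0.31 ± 0.02, or -0.20 over detected genes only.

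Below 100 TPM stood Rpl27a (74.9, 98.2 and 84.2 TPM), Rps12 (28.1, 37.4 and 41 TPM), Rpl10 (35, 38.6 and 26.7 TPM), Rpl12 and Rpl5. Rpl10 is loaded late in assembly and is needed for the subunits to join. In each of these 5 genes the copies carried most of the joint counts: 76.3% for Rpl27a, 89.5% for Rps12, 94.8% for Rpl10, 93.8% for Rpl12 and 97.4% for Rpl5. The next gene above them was Rpl7l1 with 106, 102 and 103 TPM, which has no copy by the definition used.

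Expected counts divide a read that matches several genes, and nearly all of these genes were divided. The expected count was whole (within 0.005) in every library for 4 of 82 genes, among them the undetected Rpl3l, Rpl10l and Rpl39l, beside 48.8% of annotated genes with a summed count of at least 30. These undetected genes had summed counts below 30, so they lie outside the set of that comparison. A copy was defined as another annotated gene elsewhere in the genome with at least 50% of its own 50-base stretches in the transcripts of a ribosomal protein gene. By this definition 64 genes had 191 copies, of which 181 were annotated as pseudogenes and 9 as protein coding, and 37 copies had a mean of at least 1000 expected counts. All copies together took 0.612, 0.633 and 0.601% of expected counts. In 19 genes the copies held more counts than the gene itself, in 17 genes they held from 10 to 50%, and in 28 genes less than 10%.

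The largest copy was Gm12918, whose first coding bases are printed above. It had 25329, 25704 and 28210 expected counts against 6383, 9139 and 9795 for Rpl13. All of its 50-base stretches are in Rpl13 transcripts, and 80.3% of the stretches of Rpl13 are shared with some other gene. Rps6-ps4 had 14158, 14094 and 15527 counts against 5133, 7061 and 7845 for Rps6. Rps27rt had 10324, 11130 and 12433 counts against 5273, 7069 and 7203 for Rps27. Rps23-ps1 had 9714, 10713 and 11179 counts against 2896, 4384 and 4851 for Rps23. In these 4 cases every library gave the copy more counts than the parent gene. The 2 Rpl27 pseudogenes Gm11518 and Rpl27-ps3 were given identical values of 3497, 3748 and 4055 counts each. The share of such counts that came from transcripts of the copies was not tested, and reads within identical stretches cannot be told apart.

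Adding copies narrowed the range of levels. The SD of the log2 level over the 79 detected genes went from 1.50 to 0.94, and the fold between quartiles from 3.33 to 2.13. The lowest detected gene with copies was Rpl7l1 at 104 TPM. Of the 5 genes below 100 TPM, all stood between 440.3 TPM (Rpl5) and 782 TPM (Rpl27a) with copies. Summed TPM weighs short copies strongly, so the sum was also taken another way. With the counts of copies placed on the gene's own length, the SD of the log2 level was 0.97 and the fold between quartiles 2.39.

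**Figure D2:**
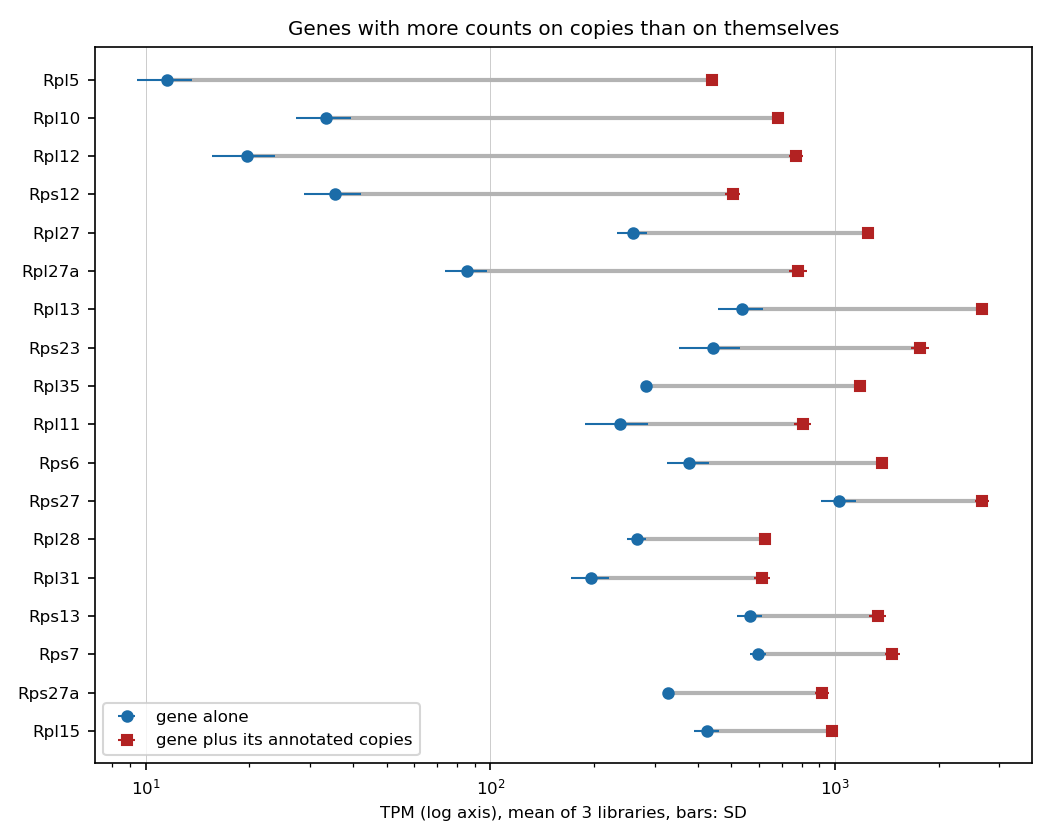
Mean TPM of genes with more counts on copies than on themselves, alone (circles) and with their annotated copies (squares), on a log axis; bars are the SD over 3 libraries and grey lines join both values of a gene. The join is longest for Rpl5, from 11.5 to 440.3 TPM, Rpl12, from 19.7 to 772 TPM, and Rpl10, from 33.4 to 685 TPM.

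The uncertainty deposited with the counts was smaller than the spread over libraries in most detected genes: the SD over libraries was below it in 3.80% of them. Whether it covers the division of reads between a gene and an identical copy was not tested. The deposited posterior SD of the count had a median of 0.765% of the count over detected genes and reached 5% in 5 of them: Rps12 (12.5%), Rpl10 (12%), Rpl5 (7.69%), Rpl12 (5.55%) and Rps27 (5.06%).

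Paralogs with tissue-restricted expression were not detected at this depth. Rpl3l, a striated muscle paralog of Rpl3, had 0, 0 and 3 expected counts, and Rpl10l, a testis paralog of Rpl10, had 1, 2 and 0. Rpl39l, a testis paralog of Rpl39, had 8, 11 and 4 counts, or 0.82, 0.83 and 0.27 TPM. None of 6 muscle and testis markers was detected. Rpl3 had 1045, 1054 and 1025 TPM, so the log2 ratio of Rpl3 to Rpl3l with 1 added to each TPM was 9.97 ± 0.12, a value that the added 1 limits. The ratio was 7.78 ± 0.40 for Rpl39 to Rpl39l. For Rpl10 to Rpl10l it was 5.02 ± 0.20 for the genes alone and 9.35 ± 0.06 with the copies of Rpl10.

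The other paralogs were expressed together with their partners. Rpl22, which binds RNA and is known from T cell development, had 321, 353 and 357 TPM, and its paralog Rpl22l1 had 176, 177 and 196 TPM, a log2 ratio of 0.90 ± 0.08. Rpl7 had 1114, 1209 and 1119 TPM against 106, 102 and 103 TPM for Rpl7l1, a log2 ratio of 3.46 ± 0.09. Rps27 had 908, 1145 and 1035 TPM against 198, 227 and 219.7 TPM for Rps27l, a p53 target, and the log2 ratio was 2.25 ± 0.07 alone and 3.63 ± 0.04 with Rps27rt and a further copy. Rpl36a, on the X chromosome, had 153, 178 and 157 TPM against 333, 389 and 390 TPM for its autosomal retrogene Rpl36al, a log2 ratio of -1.18 ± 0.11. With the copies of Rpl36a added that ratio was -0.04 ± 0.03. Copies of Rpl36al, which is outside the name rule, were not searched, so this sum could only raise the ratio. Rps4x had 484, 504 and 519 TPM, and no value of Rps4l was used. A ratio was read as larger than the spread where all libraries had 1 sign and the mean exceeded 2 SD, and all 9 pairs met this for the genes alone. With 3 libraries the smallest two-sided exact p for a sign is 0.25, so none is given.

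**Figure D3:**
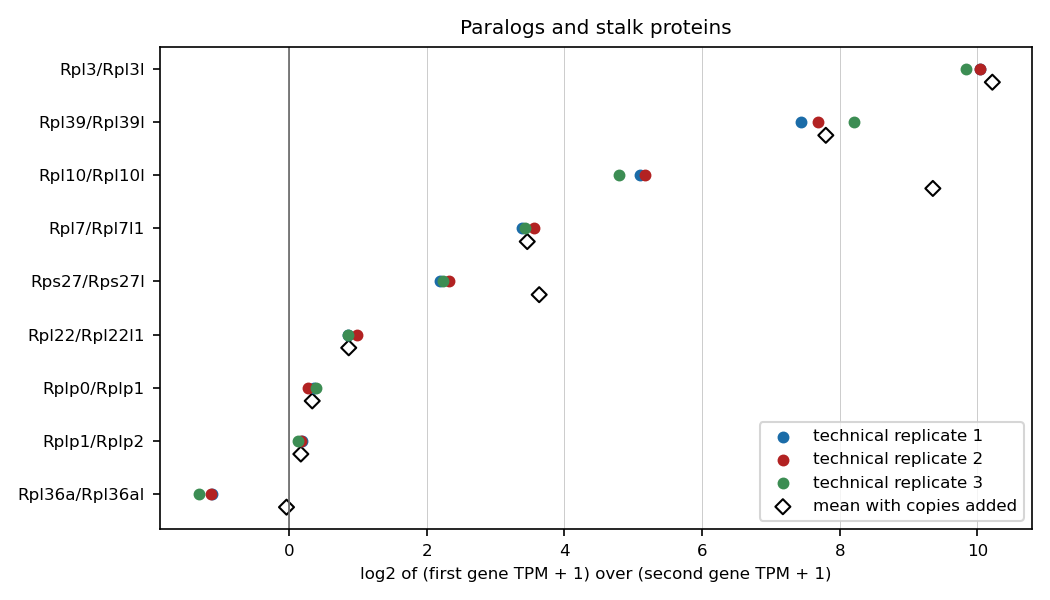
Log2 ratio of the TPM of paralogs and of stalk genes, 1 added to each, with 1 point per library; open diamonds give the mean with copies added. Rpl10/Rpl10l moves from 5.02 to 9.35 and Rpl36a/Rpl36al from -1.18 to -0.04 when copies of Rpl10 and of Rpl36a are added, and the stalk ratios stay near 0.

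The 3 libraries differed in their share of ribosomal protein counts by more than counting noise. A chi-square test of equal shares with Benjamini-Hochberg adjustment over all genes called 75 of 79 genes at 0.05, beside 65.8 percent of 15945 genes and 86.8% of the 577 genes with a mean of at least 10000 counts (20 of 22 ribosomal protein genes there). Over all genes calls were thus more frequent at higher counts. The 22 ribosomal protein genes are part of the 79 and nearly all genes of both sets were called, so they cannot show such a trend. Calls in the ribosomal protein genes fell to 13 of 79 when the statistic was divided by the overdispersion of all genes (295 of 15945 genes). Leaving out library 2 gave calls in 48 of 79 genes, beside 41.1% of 14779 genes. In a smaller deposited table of whole counts, described below, the test called 1 of 76 genes, beside 33.5% of 11469 genes. The counts of ribosomal protein genes there were a median of 1.96% of the expected counts, and at lower counts the test resolves only larger differences. High counts there also hardly moved, with 2092, 2066 and 2075 for Rpl4 and 1334, 1341 and 1348 for Rps3. The totals of that table were 8827129, 8758421 and 9555924. Some low counts moved more, such as 4, 4 and 12 for Rpl36a. The reason for the few calls was not tested. As a share of library counts, 71 of 79 genes were highest in library 2 and 69 were lowest in library 1, beside 36.7% and 30.9% of all tested genes. The median log2 ratio of library 2 to library 1 was 0.17, and 0.00 over all tested genes. Length moved with this: of 300 other protein-coding genes with mean length up to 800 bases and a mean of at least 1000 counts, 61.7% were highest in library 2 and 60.7% lowest in library 1, against 30.7% and 28% of 5847 longer ones. The summed red cell markers were highest in library 1 and lowest in library 2. The part of length or of other cells in the result was not tested.

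**Figure D4:**
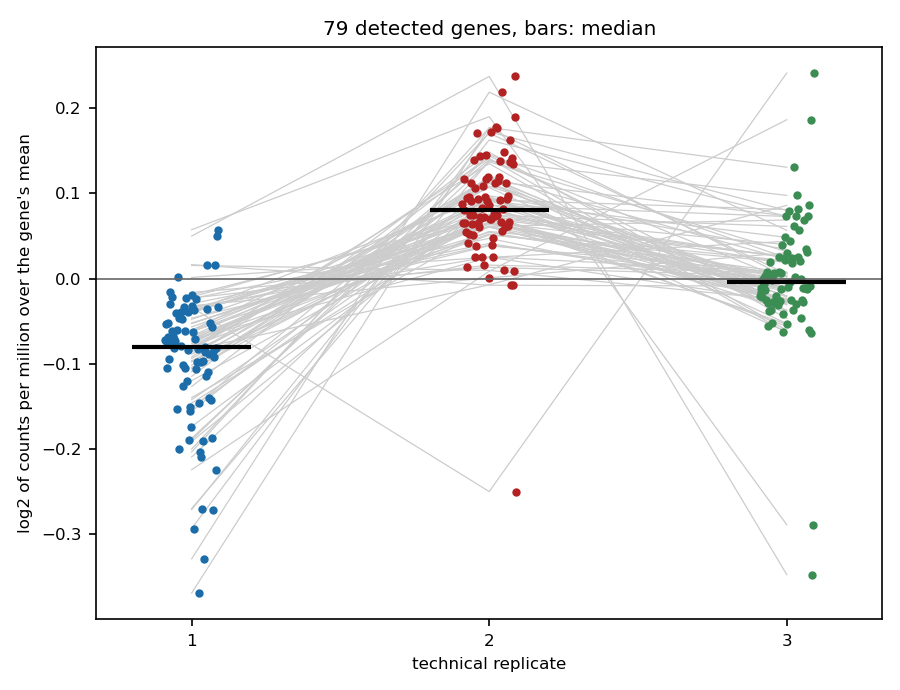
Share of library counts of the 79 detected genes in each library, as log2 of its ratio to the gene's mean over the libraries; each grey line is a gene and black bars are medians. Most lines peak in library 2, where 71 genes are highest, and 69 genes are lowest in library 1.

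The size of the spread was measured as the excess coefficient of variation (CV) over counting noise. Its median was 6.02% over the 79 genes and 8.53% over all tested genes, which have lower counts. At 1000 to 10000 counts it was 7.12% over 53 ribosomal protein genes and 5.16% over 5810 genes, and at 10000 or more 4.29% and 3.00%. These medians and their order depended on the libraries used. The median over the 79 genes was 3.96% without library 1, 3.33% without library 2 and 8.11% without library 3, beside 6.46%, 5.14% and 6.13% over all tested genes. At 1000 to 10000 counts the ribosomal protein genes were below all genes without library 1 (3.92% and 4.06%), and at 10000 or more without library 2 (1.97% and 2.53%). They were above all genes in the remaining settings. At 1000 to 10000 counts these were without library 2 (4.57% and 3.79%) and without library 3 (9.47% and 4.23%). At 10000 or more they were without library 1 (3.54% and 1.75%) and without library 3 (5.54% and 2.81%). Among the largest values were those of Rps23 (19.6%), Rpl10 (19.4%), Rpl13 (16.3%) and Rpl12 (15.8%), all genes with more counts on copies than on themselves. When the counts of gene and copies were summed, these values became 7.19%, 3.7%, 3.06% and 6.42%. Over the 19 genes of that kind the median was 12.7% alone and 4.30% with copies, and 16 of 19 were lower with copies. Over the other 60 detected genes it was 5.58% alone and 5.28% with copies, and 29 of 60 were lower. Genes without a copy, which cannot change, are among the 60. The 19 genes were picked by these same counts, so most of each sum is counts of copies. The part of that choice in the lower values was not tested. Rpl7l1 (0%), Rpl17 (0.33%), Rps14 (0.652%) and Rpl6 (1.02%) did not pass the test, with adjusted p of 0.726, 0.387, 0.256 and 0.173 in the chi-square test with Benjamini-Hochberg adjustment.

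Transcript tables divided the counts of each gene further, over 497 annotated transcripts of which 231 are protein coding. The median share of protein-coding transcripts was 96.9% of TPM (SD 0.298) over the detected genes. In this measure 45 of 79 had at least 90% of their TPM on protein-coding transcripts and 23 had less than 50%. By expected counts the median was 96.5%, near the 94.7% over 10429 detected protein-coding genes. At least 90% of counts were on protein-coding transcripts in 45 of 79, beside 61.0% of those 10429 genes. Under 50% by expected counts were 21 of 79, beside 8.58% of those 10429 genes. In 20 genes (25.3%, beside 7.62% of detected protein-coding genes) the leading transcript was not a coding one: a retained intron in 11, a processed transcript in 6 and a target of nonsense-mediated decay in 3.

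The genes with the largest share off protein-coding transcripts were Rps16, Rps26, Rpl35, Rpl37 and Rpsa, chosen by that share. The retained-intron transcript Rps16-203 held 93.3% ± 0.534 of the counts of Rps16, and Rps26-202 held 96.6% ± 0.955 of those of Rps26. Rpl35-203, a processed transcript, held 95.7% ± 0.645. Rpl37-202 held 69% ± 2.65, and Rpsa-206, annotated for nonsense-mediated decay, held 91.8% ± 0.278. These leading transcripts overlap the coding ones: over the 20 genes a median of 78% of their 50-base stretches are also in coding transcripts of the same gene, from 26.1% for Rpl5-205 to 92.8% for Rps18-209. They are also often shorter, with 518 bases for Rps16-203 against 1109 bases for Rps16-201, and 541 bases for Rpl35-203 against 946 bases for Rpl35-201. Shared stretches and intron reads cannot be told apart in these tables, so the shares do not count unspliced RNA. Rps24, known for alternative splicing of its last exons, had 56.6% ± 4.76 of its counts on Rps24-202, 23.4% ± 1.59 on Rps24-210 and 13.3% ± 2.84 on Rps24-201, all protein coding. Rpl22l1 had 69.7% ± 4.37 of its counts on Rpl22l1-209, a processed transcript.

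**Figure D5:**
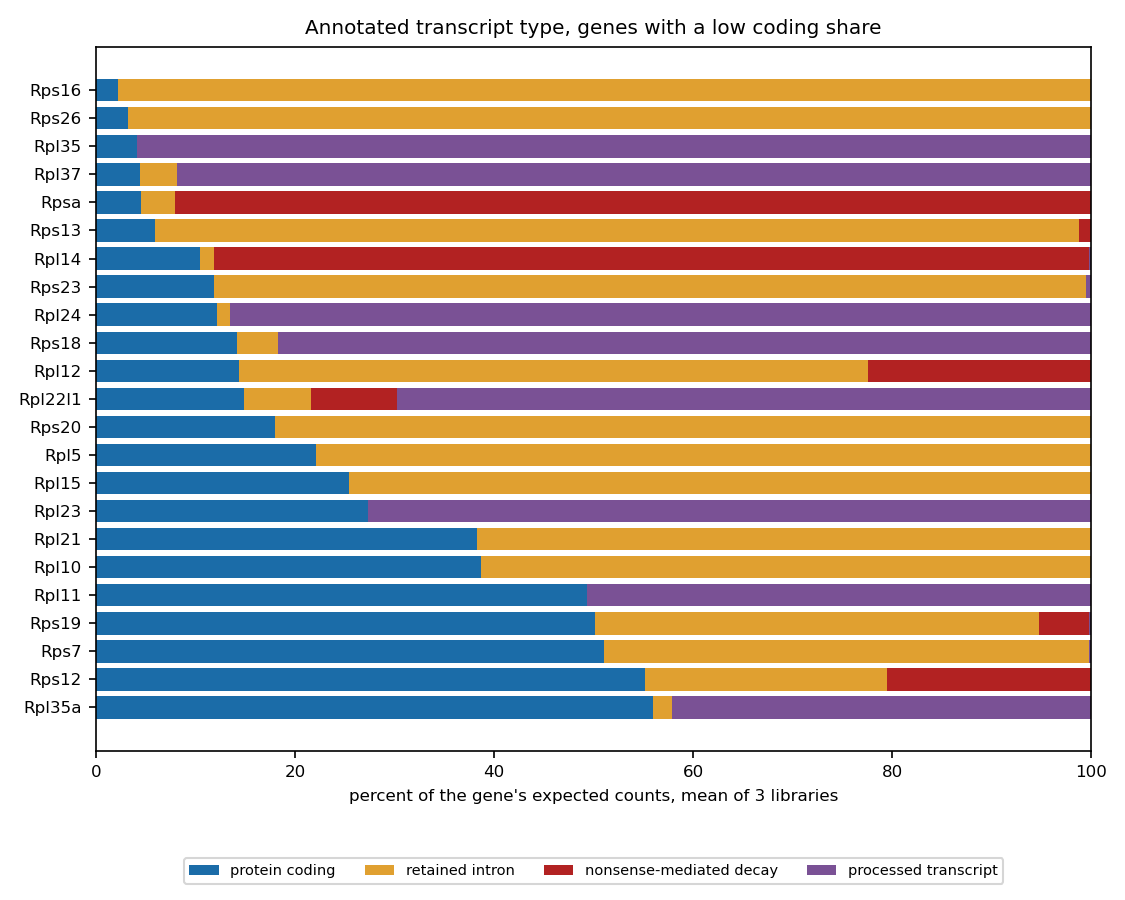
Share of expected counts by annotated transcript type in detected genes with a low protein-coding share, as the mean of 3 libraries. Bars run from Rps16, with 2.21% on protein-coding transcripts, to Rpl35a, with 56%, and the other type is a retained intron, a processed transcript or a decay target depending on the gene.

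Introns of ribosomal protein genes are known hosts of small nucleolar RNAs (snoRNAs), which guide modification of ribosomal RNA. Here 56 annotated snoRNA genes lay inside 29 of the 82 genes (35.4%), beside 1.27% of protein-coding genes that hold one. Most snoRNAs carry no polyA tail, and 11 of the 56 reached TPM 1 in every library, each on few counts: Snord72 in Rpl37 had 4, 5 and 7, and Snord35a in Rpl13a had 4, 7 and 4. The genes are spread over 19 chromosomes, with 14 on chromosome 7 (17.1%, beside 9.18% of protein-coding genes), 4 on the X and 0 on the Y chromosome.

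Genes that work with the ribosome were detected throughout. Of 6 further ribosomal protein genes outside the name rule, all were detected, among them Fau with 697, 728 and 682 TPM, made as a fusion with a ubiquitin-like protein, Rack1 with 486, 538 and 509.5 TPM, and Rps3a1, Rpl36al and Rps27rt. All 8 elongation and nascent chain genes were detected with a median of 516 TPM, led by the elongation factor Eef1a1 at 3263, 3147 and 3133 TPM. All 21 genes of nucleolar assembly were detected with a median of 58.6 TPM, from Rrp12 at 8.99 TPM to Npm1 at 387 TPM. All 8 regulators of TOP messages were detected with a median of 32.0 TPM, among them Larp1 with 74.8, 76.3 and 74.9 TPM and Mtor with 17.9, 14.5 and 17.6 TPM.

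A second, smaller gene table with whole counts on an older annotation (GENCODE M4) listed all 82 genes but gave them 0.206, 0.210 and 0.195% of its counts. How that table counts shared or repeated reads is not stated, so its values are not on the scale of the expected counts. The count there was a median of 1.96% of the expected count, and 2.75%, 2.02% and 1.24% in genes with less than 25%, 25 to 50% and at least 50% of stretches shared with another gene. Across the 79 detected genes, which are not replicates, Spearman's rho of the shared percent with that ratio was -0.30. Rps27 had 16, 30 and 30 counts there. The log2 ratios of Rpl7 to Rpl7l1 and of Rps27 to Rps27l were -0.96 and -3.11 in that table, opposite in sign to the larger table.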

How the data were processed

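The authors deposited, per library, a gene table and a transcript table on mm10 with GENCODE M21, per the file headers and sample notes. In those tables the authors deposited expected counts (estimated counts that divide shared reads, so they need not be whole), and a posterior mean and SD of the count. TPM and FPKM were deposited by the authors already scaled for effective length and library total, and FPKM was not used for results. The other gene table, with GENCODE M4, was deposited with whole counts per gene. The sources used here give no aligner, no use of strand, and no treatment of shared or repeated reads in that table, so antisense and overlapping genes may be mixed. Rows that name no annotated gene were left out of totals. The genes described and the lists were chosen with earlier results of these data known.

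From these values, levels were taken as TPM with mean and SD. Shares between libraries were tested by chi-square (2 degrees of freedom) on rounded expected counts with a summed count of at least 30, adjusted by Benjamini-Hochberg. The test was first checked on data simulated with counting noise and known changes in some genes. The deposited counts varied more, by an overdispersion factor of 8.61 over all genes, which that check does not cover. Excess CV is the CV over libraries less counting noise. The edgeR 4.0.16 common CV over 15945 genes was 19.8%. Copies were found from 50-base stretches in the GENCODE M21 transcripts, leaving out genes that overlap the parent and small RNA genes. Named genes were the 10 highest and 10 lowest, the paralogs, the stalk, 5S, tunnel and small subunit genes, and the 5 with the largest excess CV and non-coding share. No replicate check across animals was possible. Python 3.11.15, scipy 1.17.1, R 4.3.3 and DESeq2 1.42.0 (size factors) were used. Some genes are counted in totals but not reported here by name or in the plots of single genes.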

Additional observations from a re-analysis of the deposited data

How the results depend on the processing

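Detected genes numbered 79 or 80 under every threshold and every left-out library, and 8 or 9 of 9 pairs stayed beyond the spread. Rpl39 to Rpl39l (1.07) was within it in the smaller table, and Rpl36a to Rpl36al (-0.04) with copies of Rpl36a added. The share of counts on ribosomal protein genes was 5.88% of TPM, 0.204% in the smaller table, 2.73% with copies and 2.74% with copies defined at 20%; this definition and the other added settings with copies were chosen after seeing the data. The log2 ratio of large to small subunit medians was -0.20 over detected genes, -0.26 with copies, and -12.84 over genes with whole expected counts, which are 4 genes, 3 of them not detected. The SD of log2 levels was 1.46 without length correction, 0.94 with copies, 0.93 at 20% and 0.97 at the gene's own length. Chi-square calls fell from 75 to 13 when divided by the overdispersion of all genes (a factor of 8.61, with 295 of 15945 genes called). In the smaller table, where counts of these genes were far lower, 1 of 76 was called, beside 3839 of 11469 genes. The cause was not tested. With 1 library left out, calls ranged from 48 (without library 2) to 68 (without library 3), beside 41.1% and 45.0% of all genes. Without library 1 they numbered 52, beside 48.6%. The median excess CV ranged from 3.33% (without library 2) to 8.11% (without library 3), with 3.96% without library 1. The protein-coding share was 96.5% by expected counts. Ratios reversed in the smaller table for Rpl7 to Rpl7l1 (-0.96) and Rps27 to Rps27l (-3.11); the cause was not tested. No paired analysis was possible because there was 1 group.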
